A study of Mus musculus with 24 samples.

Results

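The core cardiac progenitor regulators comprised 5 genes, *Nkx2-5*, *Mef2c*, *Hand1*, *Hand2* and *Smarcd3*, of 19938 genes measured. They were chosen by name, as regulators of the early heart field that belong to different gene families, and each was represented by 1 probe set. In GRCm38.p6 (RefSeq) they lie on chromosomes 17 (*Nkx2-5*, 26838664 to 26844988), 13 (*Mef2c*, 83504017 to 83667079), 11 (*Hand1*, 57828713 to 57832147), 8 (*Hand2*, 57320983 to 57324517) and 5 (*Smarcd3*, 24592622 to 24624456). RNA for 24 Affymetrix mouse Gene ST arrays came from microdissected anterior heart field (AHF) tissue, the pharyngeal arches behind the first, of mouse embryos at E9.5 with 19 to 21 somite pairs. There were 6 groups of 4 arrays, each array a pool of 3 or 6 embryos according to the methods. *Tbx1 LOF* embryos were Mef2c-AHF-Cre/+ with Tbx1 f/- or f/f, and *β-cat LOF* embryos were Mef2c-AHF-Cre/+ with β-catenin f/f. Rescue embryos were *Tbx1 LOF* embryos that also carried 1 floxed copy of β-catenin. Each mutant had its own controls. The methods describe controls without Cre (Tbx1 f/+, β-catenin f/+ and the double heterozygote), whereas the labels name wild type and Cre-carrying heterozygous littermates. Which of these the control arrays hold could not be settled. The *Tbx1* lines were in Swiss Webster and the β-catenin lines in a mixed C57Bl/6 and Swiss Webster background. For the rescue crosses, the methods describe females of an inbred line derived from that mixed background. Cre was driven by the AHF enhancer of *Mef2c*, itself one of the 5 genes, so recombination was limited to that lineage while the dissected tissue also held cells outside it.

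These genes sit near the top of the program that turns mesodermal progenitors into heart muscle. NKX2-5 is a homeodomain factor, MEF2C a MADS-box factor, and HAND1 and HAND2 are basic helix-loop-helix factors that are needed for the growth of the ventricles and the outflow tract. *Smarcd3* encodes BAF60C, the subunit that lets the BAF chromatin remodelling complex work with cardiac factors such as TBX5 and GATA4. In the AHF, *Tbx1* is known to keep progenitors from differentiating early, and canonical Wnt signalling through β-catenin acts on the same cells.

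Upstream sequence from RefSeq (GRCm38.p6) matched 4 of the 5 genes, all but *Hand1*, in 6 windows, of which 3 belonged to *Mef2c*. The 250 bases before the listed start are shown for *Hand2*, *Smarcd3* and *Nkx2-5*, the cardiac homeodomain gene. *Hand2* and *Smarcd3* had the lowest single p-values of the 5 genes over all comparisons below. In *Tbx1 LOF* against its control, *Hand1*, which has no window, had a lower p than *Smarcd3*. Capitals mark matches to a GATA motif (AGATAA), a T-box motif (GGTGTGA) or a TCF/LEF motif (CTTTGA) on either strand.
*Hand2*, chr8:57320733-57320982, plus strand: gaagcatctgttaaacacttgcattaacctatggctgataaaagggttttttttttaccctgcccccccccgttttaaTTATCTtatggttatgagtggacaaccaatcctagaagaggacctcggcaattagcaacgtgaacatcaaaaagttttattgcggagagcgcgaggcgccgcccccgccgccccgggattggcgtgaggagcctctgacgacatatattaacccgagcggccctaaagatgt
*Smarcd3*, chr5:24602003-24602252, minus strand: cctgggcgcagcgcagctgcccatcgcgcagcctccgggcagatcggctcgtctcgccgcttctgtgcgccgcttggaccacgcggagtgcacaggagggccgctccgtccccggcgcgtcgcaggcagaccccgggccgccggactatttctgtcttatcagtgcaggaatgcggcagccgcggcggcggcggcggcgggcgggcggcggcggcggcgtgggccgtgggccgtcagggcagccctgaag
*Nkx2-5*, chr17:26841566-26841815, minus strand: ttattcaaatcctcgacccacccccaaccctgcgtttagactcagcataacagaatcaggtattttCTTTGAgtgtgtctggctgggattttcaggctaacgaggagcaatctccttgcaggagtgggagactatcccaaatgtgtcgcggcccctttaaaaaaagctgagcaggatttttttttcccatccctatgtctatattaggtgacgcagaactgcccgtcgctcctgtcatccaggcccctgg

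The *Hand2* window held 1 GATA match, which starts 172 bases before the start site, and the *Nkx2-5* window held 1 TCF/LEF match, which starts 184 bases before it. The *Smarcd3* window and the *Mef2c* windows held neither run of letters, and none of the 6 windows held the T-box letters. Only AGATAA was searched for GATA. The related TGATAA, which occurs on a strand of the printed *Hand2* and *Smarcd3* windows, was not counted. Of all 32851 windows of this length, 9.99% held the GATA motif, 3.33% the T-box motif and 13.8% the TCF/LEF motif. Shorter motifs were common, with an NK2 motif (AAGTG) in 40.7% and an E-box (CANNTG) in 66.2% of all windows, and 1 of the 2 E-boxes of *Hand2* overlapped its NK2 match. The listed starts of *Smarcd3* and *Nkx2-5* lie inside the annotated span of each gene, which reaches farther upstream than the window's start site. A match is a run of letters and was not tested as a binding site.

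The probe set of *Tbx1* read 11.27 ± 0.20 in *Tbx1 LOF* and 11.92 ± 0.10 in its control (log2 scale, SD, n = 4 each), and the fold change of 0.64 passed the test over all genes (limma, adjusted p = 0.00626). In rescue it read 11.47 ± 0.05 and in the rescue control 11.78 ± 0.16 (limma, adjusted p = 1.0, exact permutation p = 0.0286), and the 4 rescue arrays all lay below the 4 controls. The probe set of *Ctnnb1*, which encodes β-catenin, read 13.18 ± 0.09 in *β-cat LOF* and 13.20 ± 0.02 in its control. Where its probes lie relative to the floxed exons was not analysed here, so it checks no label. The AHF genes *Isl1* (10.47 to 10.93), *Fgf8* (9.41 to 10.28) and *Fgf10* (9.03 to 9.95) carried signal on all 24 arrays. The mean of 14 heart tube markers, most of them genes of muscle structure, differed between arrays. The study states that the heart tube was left out of the dissection. According to the study, such genes rose in the AHF after loss of *Tbx1* and fell after loss of β-catenin. It reads the rise as premature differentiation in the AHF itself. Whether the marker signal came from AHF cells or from heart tube cells was not tested here. For *Tbx1 LOF* the marker mean ranged from 10.76 to 11.10, against 9.82 to 10.42 for the control. For *β-cat LOF* the range was 10.04 to 10.56, against 10.68 to 12.76 for the control, and for rescue 9.96 to 10.52, against 9.63 to 10.57 for the control. The array at 12.76, *β-cat LOF* control replicate 2, stood apart from the others, and the results that it moved most are given with and without it.

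*Hand1*, *Hand2* and *Smarcd3* were higher in *Tbx1 LOF* than in its control, with all 4 mutant arrays above all 4 controls, while *Nkx2-5* and *Mef2c* were higher in the mean with overlapping arrays. None of the 5 genes reached an adjusted p under 0.05, a call that 0.0301% of all genes received in this comparison. At an unadjusted p under 0.05, 3 of the 5 genes were higher and none was lower, where 2.17% of all genes were higher and 1.95% lower by this rule. All 5 had a log2 fold change above 0, as did 41.3% of all genes. None of the 5 also passed the fold change of 1.5 that the study used for its dot plots (0.326% of all genes). For its comparison with rescue the study took genes at p under 0.05 alone. The question here was whether loss of *Tbx1* in the AHF shifts the regulators of heart muscle identity.

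*Hand1*, which marks the outer curvature of the heart tube and the left ventricle, read 10.76, 10.55, 10.30 and 10.35 in the 4 *Tbx1 LOF* arrays, against 9.97, 9.86, 10.18 and 10.02 in the controls. The lowest mutant array thus stayed above the highest control. The log2 fold change was 0.48 with an SE of 0.14, a fold of 1.40 with a 95% interval of 1.15 to 1.70 (limma, adjusted p = 0.46). By the two-sided exact permutation test of 4 arrays against 4, p = 0.0286, the smallest that this design allows. From these arrays and qRT-PCR, the study lists *Hand1* and *Smarcd3* as higher in *Tbx1 LOF*, lower in *β-cat LOF* and not normalized in rescue. Their direction in *Tbx1 LOF* is therefore not independent evidence. The qRT-PCR of the study used Tbx1 f/+ as the control for all genotypes, whereas each mutant is set here against its own controls. On the arrays as fitted here, *Hand1* had a log2 fold change of -0.00 in *β-cat LOF* and -0.03 in rescue. For *Smarcd3* the values were -0.42 and 0.12.

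*Hand2*, needed for the right ventricle and for the ventral part of the arches, read 10.56, 10.33, 10.43 and 10.31 in *Tbx1 LOF* and 10.22, 10.04, 10.22 and 10.15 in its control. Its groups did not overlap either, and its arrays varied least among the 5 genes, with a residual SD of 0.0774 where the median over all genes was 0.112. The fold change was 1.19 (1.09 to 1.30) and ranked 25th of 19938 genes by p (limma p = 0.000295, adjusted p = 0.235, exact permutation p = 0.0286). *Smarcd3* read 10.56, 10.27, 10.17 and 10.21 in *Tbx1 LOF*, against 9.95, 9.97, 9.99 and 9.79 in its control, again without overlap. Its fold change was 1.30 (1.07 to 1.56, limma p = 0.00891, adjusted p = 0.795, exact permutation p = 0.0286). Of all genes, 1.32% had 4 *Tbx1 LOF* arrays above all controls.

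*Nkx2-5*, the earliest homeodomain marker of the cardiac lineage, read 10.53, 10.20, 11.02 and 10.39 in *Tbx1 LOF* and 10.11, 10.14, 10.49 and 10.30 in its control. The groups overlapped, and the mutant mean rested on replicate 3. The log2 fold change of 0.27 (SE 0.16, limma p = 0.0925, exact permutation p = 0.229) became 0.11 without that array. *Mef2c* read 10.84, 10.64, 10.84 and 10.69 in *Tbx1 LOF* and between 10.63 and 10.68 in its control. Its difference was 0.10 (95% interval -0.08 to 0.28), which left out neither no change nor a difference of the size measured for *Hand2*.

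**Figure D1:**
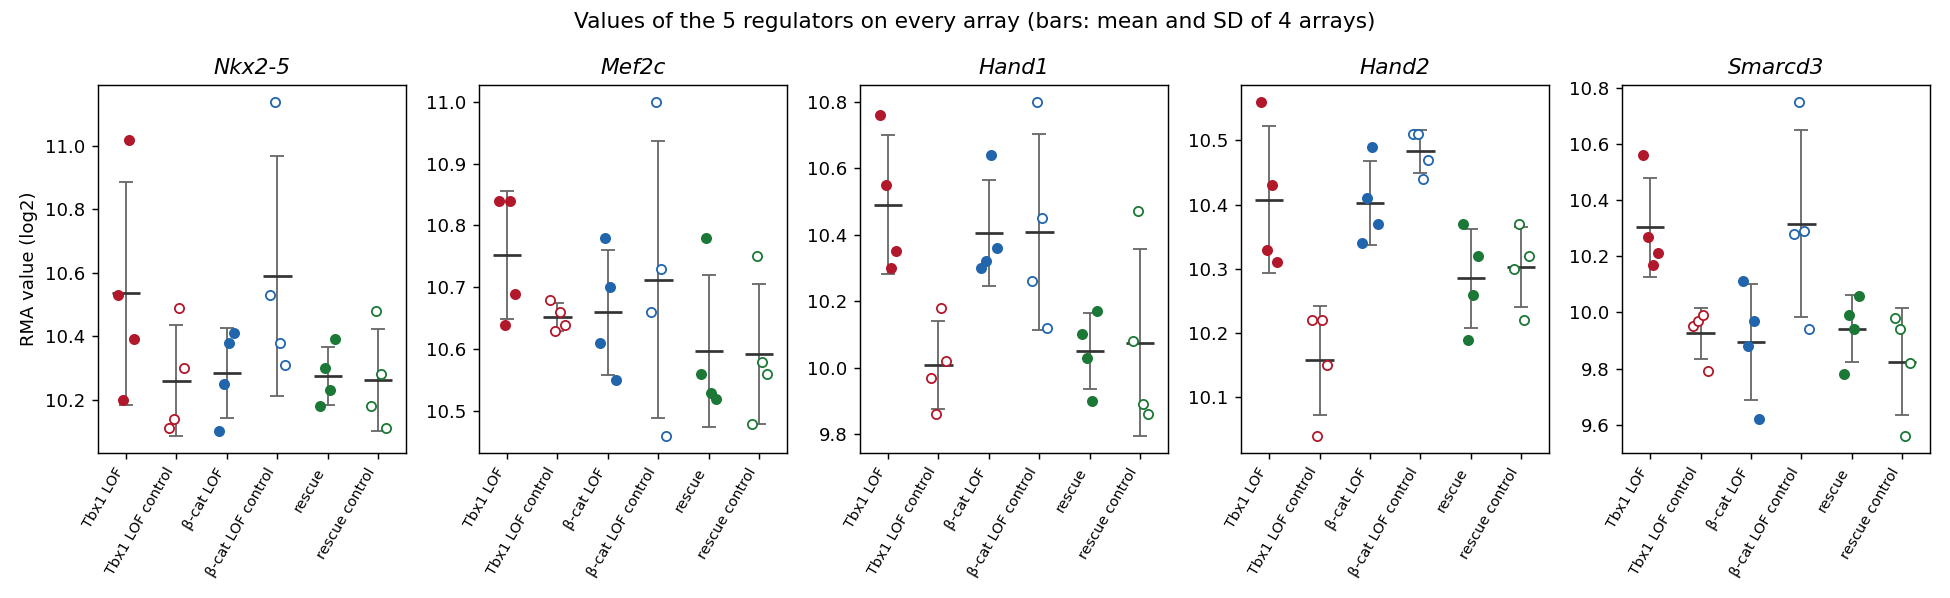
RMA value (log2) of each of the 5 genes on all 24 arrays, by group, with filled points for mutants, open points for controls, and the mean and SD of 4 arrays as bars. The *Tbx1 LOF* points of *Hand1*, *Hand2* and *Smarcd3* all lie above those of the *Tbx1 LOF* control, and the highest control point of *Nkx2-5*, *Mef2c*, *Hand1* and *Smarcd3* is the same *β-cat LOF* control array.

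In *β-cat LOF* embryos *Smarcd3* was lower and the other 4 genes did not pass any threshold. None of the 5 genes had an adjusted p under 0.05, a call that 0.0% of all genes received. At an unadjusted p under 0.05, 1 of 5 was lower, against 2.88% of all genes, and none higher, against 2.83%. None of the 5 had a log2 fold change above 0, which 57.4% of all genes had. *Smarcd3* read 10.11, 9.88, 9.97 and 9.62 in *β-cat LOF*, against 10.28, 10.75, 10.29 and 9.94 in its control, so 2 of the 4 mutant arrays lay below every control. The fold change was 0.748 (0.62 to 0.902, limma p = 0.00394, adjusted p = 0.69), with an exact permutation p of 0.0857. Without control replicate 2, whose heart tube marker mean was 12.76, the log2 fold change was -0.28 in place of -0.42 (limma, adjusted p = 0.999), and 1.42% of all genes were then called lower.

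*Nkx2-5* read 10.10, 10.25, 10.38 and 10.41 in *β-cat LOF*, against 10.53, 11.14, 10.38 and 10.31 in its control. Its log2 fold change was -0.31 (95% interval -0.63 to 0.02), and -0.12 without control replicate 2. *Hand2* read 10.34, 10.41, 10.49 and 10.37 in *β-cat LOF*, against 10.51, 10.51, 10.44 and 10.47 in its control. The difference was -0.08 (95% interval -0.20 to 0.04), with 3 of the 4 mutant arrays below all controls (exact permutation p = 0.0857). This interval lies below the 0.25 measured in *Tbx1 LOF*.

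The direction of *Hand1* and *Mef2c* in *β-cat LOF* depended on single arrays. *Hand1* read 10.30, 10.32, 10.64 and 10.36 in *β-cat LOF*, against 10.26, 10.80, 10.45 and 10.12 in its control, with a log2 fold change of -0.00 (95% interval -0.29 to 0.28) that became 0.13 without control replicate 2. *Mef2c* ranged from 10.55 to 10.78 in *β-cat LOF* and from 10.46 to 11.00 in its control. Its value was -0.05 with that array and 0.04 without it.

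In rescue embryos none of the 5 genes differed from the rescue control at an unadjusted p under 0.05, a rule that called 1.27% of all genes. No gene at all had an adjusted p under 0.05 (0.0%, limma), and 3 of the 5 had a log2 fold change above 0, against 39.0% of all genes. *Hand2* read 10.37, 10.19, 10.26 and 10.32 in rescue and 10.30, 10.37, 10.22 and 10.32 in its control, and the interval of its log2 fold change, -0.14 to 0.10, did not reach the 0.25 of *Tbx1 LOF*. *Hand1* read 10.10, 10.03, 9.90 and 10.17 in rescue and 10.08, 10.47, 9.89 and 9.86 in its control (log2 fold change -0.03, 95% interval -0.31 to 0.26). Both groups overlapped throughout.

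*Smarcd3* read 9.78, 9.99, 9.94 and 10.06 in rescue and 9.98, 9.94, 9.56 and 9.82 in its control, and its interval of -0.15 to 0.39 still held the 0.37 seen in *Tbx1 LOF*. *Nkx2-5* ranged from 10.18 to 10.39 in rescue and from 10.11 to 10.48 in its control, and *Mef2c* from 10.52 to 10.78 in rescue and from 10.48 to 10.75 in its control. Their log2 fold changes were 0.01 and 0.00. For *Nkx2-5* the interval (-0.31 to 0.33) was wide enough to hold both the *Tbx1 LOF* and the *β-cat LOF* value.

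The differences between effects were tested directly, as each experiment had its own controls. Between *Tbx1 LOF* and *β-cat LOF*, the difference of log2 fold changes was 0.79 for *Smarcd3* (SE 0.18, limma adjusted p = 0.0987) and 0.33 for *Hand2* (SE 0.08, limma adjusted p = 0.127). *Nkx2-5* and *Hand1* differed by 0.58 and 0.49 (limma, adjusted p = 0.501 and 0.556), and *Mef2c* by 0.15 (95% interval -0.10 to 0.41). Thus 4 of the 5 genes were higher in this contrast at an unadjusted p under 0.05, against 3.41% of all genes, and none at an adjusted p under 0.05, against 0.0502%. Without *β-cat LOF* control replicate 2 the differences were 0.65 for *Smarcd3* (limma, adjusted p = 0.135), 0.32 for *Hand2*, 0.39 for *Nkx2-5*, 0.35 for *Hand1* and 0.06 for *Mef2c*. The number at an unadjusted p under 0.05 was then 3, against 2.51% of all genes, since *Hand1* no longer passed. The calls of *Smarcd3* and *Hand2* depended on how the same-numbered arrays were treated. With the replicate number as a random block, adjusted p was 0.026 for *Smarcd3* and 0.0331 for *Hand2* (limma), and as a fixed block 0.081 and 0.098. Without *β-cat LOF* control replicate 4, *Smarcd3* differed by 0.92 (limma, adjusted p = 0.00876).

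Between *Tbx1 LOF* and rescue, *Hand1* differed by 0.51 (SE 0.19) and *Hand2* by 0.27 (SE 0.08), both with an adjusted p of 1.0 (limma). These were 2 of 5 genes higher at an unadjusted p under 0.05, against 0.943% of all genes. *Smarcd3* differed by 0.26 (95% interval -0.13 to 0.64) and did not separate the 2 effects. Between rescue and *β-cat LOF*, *Smarcd3* was the 1 gene of 5 at an unadjusted p under 0.05 (0.54, SE 0.18, limma, adjusted p = 0.938), against 1.83% of all genes, and its difference was 0.39 without *β-cat LOF* control replicate 2.

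**Figure D2:**
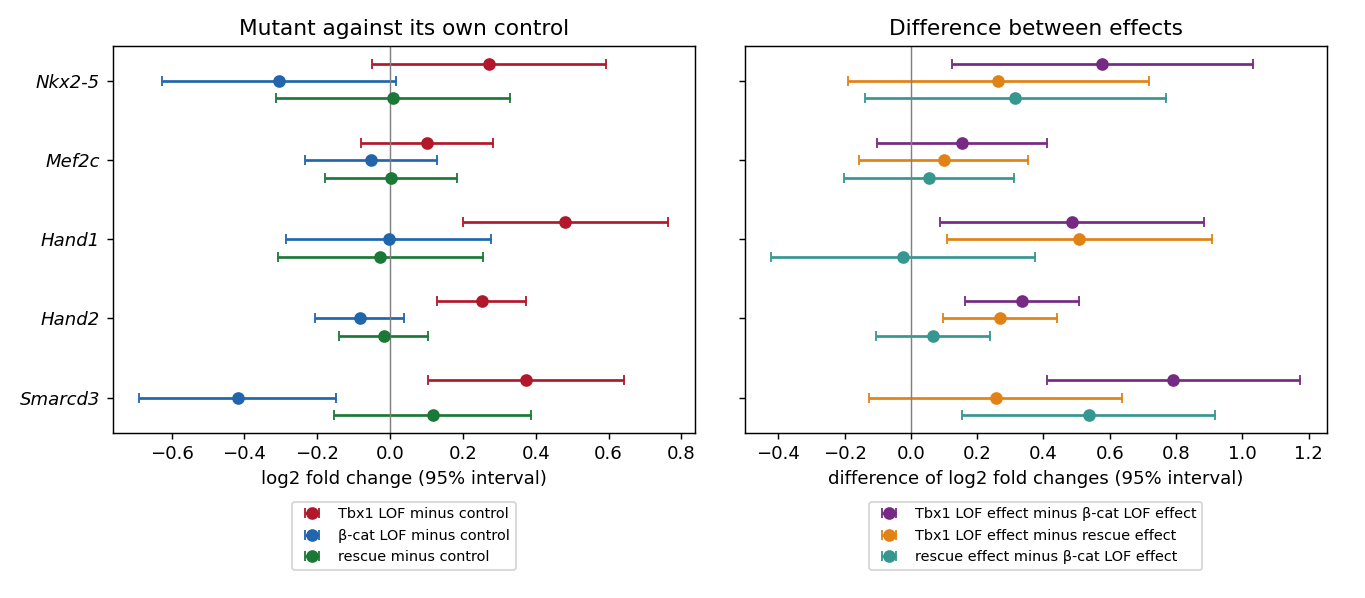
Log2 fold change of each gene in each mutant against its own control (left) and differences between these effects (right), with 95% intervals from limma. In *Tbx1 LOF* the intervals of *Hand1*, *Hand2* and *Smarcd3* lie above 0, in *β-cat LOF* only that of *Smarcd3* lies below 0, and in rescue all 5 cross 0.

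The control groups themselves differed, a comparison chosen after their values were seen. *Hand2* averaged 10.48 ± 0.04 in the *β-cat LOF* control and 10.16 ± 0.08 in the *Tbx1 LOF* control (SD, n = 4 each), a difference of 0.32 with an SE of 0.06 (limma, adjusted p = 0.0172), where 0.562% of all genes were called. Without control replicate 2 the *β-cat LOF* control averaged 10.47. The other 4 genes were not called between these controls, and none of the 5 was called between either of them and the rescue control. At an unadjusted p under 0.05 (limma), *Hand1* (0.40), *Smarcd3* (0.39) and *Nkx2-5* (0.33) were also higher in the *β-cat LOF* control than in the *Tbx1 LOF* control. *Mef2c* (0.06) was not. Above the rescue control, the *β-cat LOF* control was higher by this rule for *Smarcd3* (0.49), *Hand1* (0.33), *Nkx2-5* (0.33) and *Hand2* (0.18). The rescue control was above the *Tbx1 LOF* control for *Hand2* (0.14). The methods put the *Tbx1* and β-catenin lines in different backgrounds, so experiment and strain cannot be told apart here. Ordered by group mean, *Hand2* was highest in the *β-cat LOF* control, followed by *Tbx1 LOF* (10.41 ± 0.12), *β-cat LOF* (10.40 ± 0.07), the rescue control (10.30 ± 0.06), rescue (10.29 ± 0.08) and the *Tbx1 LOF* control, and all neighbours in this order overlapped.

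For *Smarcd3* the order began with the *β-cat LOF* control (10.31 ± 0.33) and *Tbx1 LOF* (10.30 ± 0.18), which overlapped. Without control replicate 2 that control averaged 10.17 ± 0.20 (n = 3), below *Tbx1 LOF*. Next came rescue (9.94 ± 0.12), which ranged from 9.78 to 10.06 where *Tbx1 LOF* ranged from 10.17 to 10.56. These are levels of different experiments. With each mutant set against its own control, *Tbx1 LOF* and rescue differed by 0.26 (95% interval -0.13 to 0.64). The *Tbx1 LOF* control (9.93 ± 0.09), *β-cat LOF* (9.90 ± 0.21) and the rescue control (9.83 ± 0.19) overlapped each other. *Hand1* was highest in *Tbx1 LOF* (10.49 ± 0.21) and lowest in its control (10.01 ± 0.13). *Nkx2-5* had its highest mean in the *β-cat LOF* control (10.59 ± 0.38), but without replicate 2 this control averaged 10.41 ± 0.11 (n = 3), below *Tbx1 LOF*. *Mef2c* was highest in *Tbx1 LOF* (10.75 ± 0.10), with the groups of *Mef2c* all within 10.59 and 10.75.

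Arrays numbered 1 and 2 and arrays numbered 3 and 4 gave the same sign in *Tbx1 LOF* for all 5 genes but different sizes. *Hand1* was 0.74 higher over numbers 1 and 2 and 0.23 higher over numbers 3 and 4, *Hand2* 0.32 and 0.19, and *Smarcd3* 0.45 and 0.29. In each of the 4 same-numbered pairs of mutant and control arrays, all 5 genes were higher in *Tbx1 LOF*, as were 5.55% of all genes. In *β-cat LOF*, numbers 1 and 2 include the control array that stood apart and numbers 3 and 4 do not. *Smarcd3* differed there by -0.52 over numbers 1 and 2 and by -0.32 over numbers 3 and 4, and *Nkx2-5* by -0.66 and 0.05.

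The 5 genes varied with the heart tube markers within groups to different degrees. After group means were subtracted, the level of *Smarcd3* on the 24 arrays correlated with the mean of the 14 heart tube markers with r = 0.776 and rho = 0.731 (permutation within groups, p = 0.00046 and p = 0.00034, adjusted over the 5 relations 0.0023 and 0.0017). With the points of the 2 arrays farthest from the median left out, both of the *β-cat LOF* control, r was 0.57. The group means subtracted were still those of all 24 arrays. The remaining arrays of that control were thus measured from a mean that held the 2 left out. *Nkx2-5* (r = 0.692, rho = 0.489), *Hand1* (r = 0.689, rho = 0.51) and *Mef2c* (r = 0.673, rho = 0.375) had an adjusted permutation p between 0.0125 and 0.0277 for r but between 0.0562 and 0.119 for rho. With those 2 points left out in the same way, r was 0.438 for *Nkx2-5*, 0.508 for *Hand1* and 0.313 for *Mef2c*. As the 2 arrays still entered the group mean, how far each relation rested on them was not settled.

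*Hand2* had r = 0.267 and rho = 0.344 with the heart tube markers (permutation p = 0.081 and p = 0.101), the lowest of the 5 over all 24 arrays. With those 2 points left out in the same way its r was 0.315, next to the 0.313 of *Mef2c*. The order of the genes was not the same in both sets of 12 arrays. Each set holds 2 arrays per group, whose deviations mirror each other, so each r rests on 1 difference per group. Numbers 1 and 2 include *β-cat LOF* control replicate 2. Whether the 2 sets differ was not tested. Over arrays numbered 1 and 2, r was 0.861 for *Hand1*, 0.823 for *Smarcd3*, 0.819 for *Nkx2-5*, 0.693 for *Mef2c* and 0.009 for *Hand2*. Over those numbered 3 and 4 it was 0.684 for *Hand1*, 0.654 for *Nkx2-5*, 0.651 for *Hand2*, 0.539 for *Smarcd3* and 0.421 for *Mef2c*. In *Tbx1 LOF* 14 of 14 heart tube markers had a log2 fold change above 0 (median 0.68), 11 of them at an unadjusted p under 0.05. In *β-cat LOF* 0 of 14 were above 0 (median -1.07), with 13 lower at an unadjusted p under 0.05, and 11 without control replicate 2 (median -0.62). Examples are *Myl4*, an embryonic atrial myosin light chain (0.52 in *Tbx1 LOF*, adjusted p = 0.38, limma), and *Nppa*, the atrial natriuretic peptide (-2.68 in *β-cat LOF*, adjusted p = 0.442, limma, and -1.95 without control replicate 2). The part of the heart tube marker signal in the differences of the 5 genes was not tested, nor was the source of that signal. In bulk tissue, fewer cells of a type and less RNA per cell cannot be told apart.

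**Figure D3:**
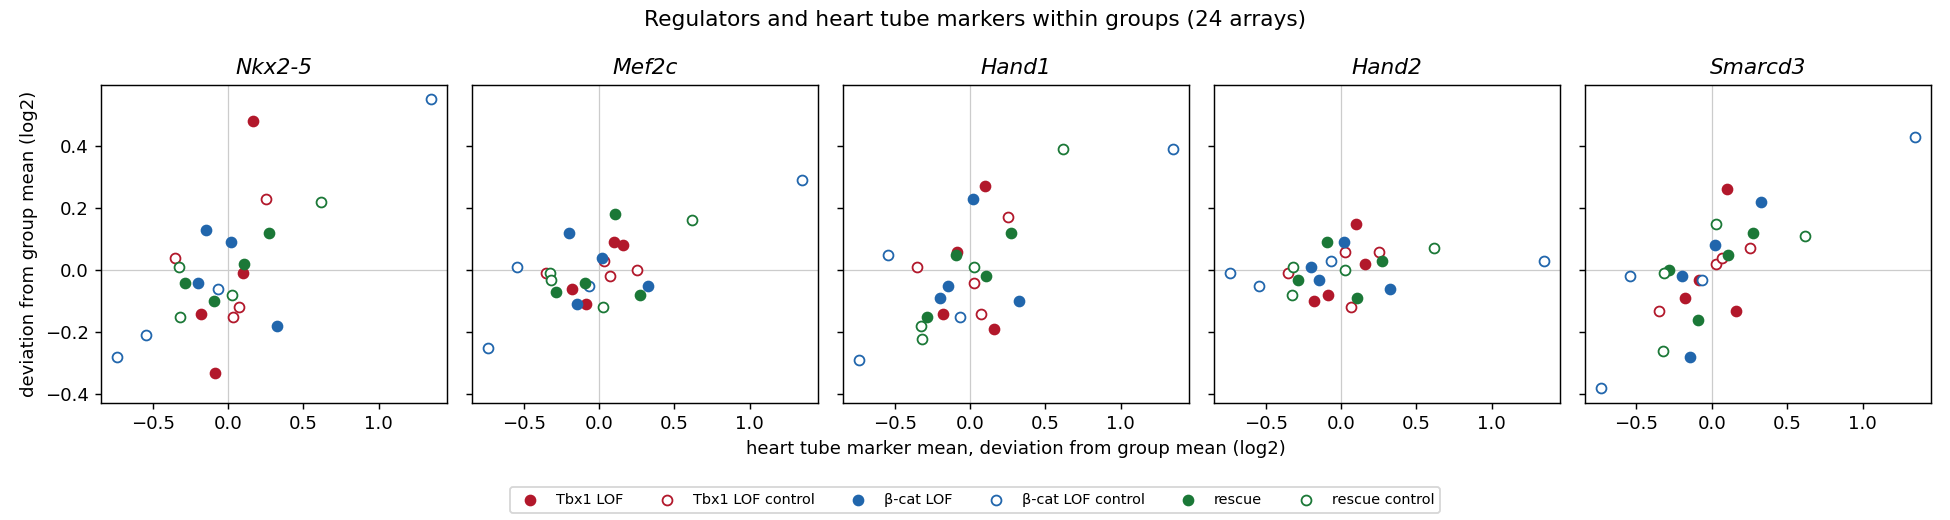
Deviation of each gene from its group mean (vertical axis, log2) against the deviation of the heart tube marker mean (horizontal axis, log2) on all 24 arrays, coloured by group. Over all 24 arrays r was 0.776 for *Smarcd3* and 0.267 for *Hand2*. Their order differed between arrays numbered 1 and 2 and arrays numbered 3 and 4, a difference that was not tested. The point at the far right of each panel is *β-cat LOF* control replicate 2.

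Markers of other tissues also differed between groups. In *Tbx1 LOF*, the mean of 9 liver, gut and mesothelium markers lay between 8.25 and 9.03, against 7.93 to 8.54 in its control, with 6 of 9 higher at an unadjusted p under 0.05, among them *Ttr* and *Afp*, made by yolk sac and early liver. Those 2 were 1.34 and 1.39 higher on the log2 scale (limma, adjusted p = 0.31 and 0.707). The mean of 9 neural crest markers lay between 10.16 and 10.38 in *Tbx1 LOF* and between 10.37 and 10.53 in its control, with 2 of 9 lower. Of the 10 branchiomeric muscle markers 4 were lower, with the lowest p for *Ebf3* (-0.32, limma, adjusted p = 0.217), and of the 10 pharyngeal endoderm markers *Pax9* was lower (-0.36, limma, adjusted p = 0.376). None of 10 endothelium markers and 1 of 7 erythroid markers passed an unadjusted p under 0.05 in *Tbx1 LOF*. In *β-cat LOF*, 5 endothelium markers and 1 branchiomeric muscle marker were lower at that level, 2 neural crest and 2 pharyngeal endoderm markers were higher, and no liver, gut, mesothelium or erythroid marker passed. Without control replicate 2, 1 endothelium and 1 branchiomeric muscle marker were lower and no marker of these tissues was higher. In rescue 1 pharyngeal endoderm marker was higher and 1 branchiomeric muscle marker lower, and no marker of the other tissues passed. For these and the heart tube markers, the shares of all genes at this level were 2.17% higher and 1.95% lower in *Tbx1 LOF*. They were 2.83% higher and 2.88% lower in *β-cat LOF* (1.82% and 1.42% without control replicate 2), and 1.27% in rescue. A single marker from a list is therefore little above the share over all genes. The part of these tissues in the differences of the 5 genes was not tested.

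Partners of the 5 genes were read from lists of known function. For these lists and those below, 2.17% of all genes were higher and 1.95% lower in *Tbx1 LOF* at an unadjusted p under 0.05. In *β-cat LOF* 2.83% were higher and 2.88% lower (1.82% and 1.42% without control replicate 2), and 1.27% passed in rescue. Of 26 measured cardiac transcription factors, 10 were higher and 2 lower in *Tbx1 LOF* at an unadjusted p under 0.05, and none at an adjusted p under 0.05 (median 0.04, and -0.014 over all genes). The GATA factors, zinc finger proteins that act with NKX2-5 and the HAND proteins, had the largest values among the 4 with the lowest p. *Gata4* was 0.85 higher (adjusted p = 0.508), *Gata6* 0.43 (adjusted p = 0.47) and *Gata5* 0.42 (adjusted p = 0.336, limma), and for *Gata4* and *Gata6* the 4 mutant arrays lay above all controls. In *β-cat LOF* 7 were lower and 1 higher, with *Tbx5*, a partner of BAF60C, at -0.81 and *Gata4* at -0.59 (limma, adjusted p = 0.639 and 0.851). Without control replicate 2, 1 was lower and none higher, with *Tbx5* at -0.66 and *Gata4* at -0.31. In rescue 0 of 26 passed an unadjusted p under 0.05.

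Of the 24 other BAF complex subunits, only *Dpf3* passed an unadjusted p under 0.05, once for *Tbx1 LOF* and once for *β-cat LOF*. By this rule 821 of 19938 genes passed for *Tbx1 LOF* and 1140 for *β-cat LOF*, so 1 of 24 is about the share over all genes. DPF3 is a PHD finger subunit known as BAF45C that is enriched in heart and skeletal muscle. Its log2 fold change was 0.31 for *Tbx1 LOF* (adjusted p = 0.795), -0.24 for *β-cat LOF* (adjusted p = 0.854) and 0.14 for rescue (adjusted p = 1.0, limma). The paralogues *Smarcd1* and *Smarcd2*, which can take the place of *Smarcd3* in the complex, did not pass in any of the 3 comparisons. The mean of the 24 subunits lay between 10.97 and 11.11 on all arrays. Among 13 family relatives of the 5 genes none passed in *Tbx1 LOF*. For *β-cat LOF* 2 were higher (*Nkx2-3* by 0.28 and *Nkx2-2* by 0.26) and *Twist2*, a helix-loop-helix relative of the HAND proteins, was lower (-0.24, limma, adjusted p = 0.854). None of them passed in rescue. Without *β-cat LOF* control replicate 2, *Dpf3* no longer passed, and 1 relative was higher and 1 lower.

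Heart genes that are reported to need *Nkx2-5*, *Mef2c* or *Hand2* in mouse embryos formed a list of 12, of which 5 are also heart tube markers. In *Tbx1 LOF* 7 of 12 were higher and none lower at an unadjusted p under 0.05 (median 0.48), among them *Smyd1*, a muscle histone methyltransferase, at 0.49 and *Myocd*, a coactivator of SRF, at 0.42. In *β-cat LOF* 8 of 12 were lower (median -0.66), and 6 without control replicate 2 (median -0.40), with *Smpx*, a small muscle protein, at -1.78 (limma, adjusted p = 0.537) and, without that array, at -1.11. In rescue none passed (median 0.16). None had an adjusted p under 0.05 in these 3 comparisons.

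Signals around *Hand2* were read from another pair of lists. Of 10 genes of the endothelin pathway of the arches, which acts upstream of *Hand2* in neural crest, *Ece1*, the enzyme that activates endothelin, was higher in *Tbx1 LOF* (0.15, limma, adjusted p = 0.982), and none passed in *β-cat LOF* or rescue. Of 14 Bmp and Fgf signals and targets of the outflow region, 4 were higher and 1 lower in *Tbx1 LOF*, with *Bmp2* at 0.44 and *Fgf10*, an AHF ligand and known target of TBX1, at -0.39. *Fgf10* was also lower in rescue (-0.47, limma, adjusted p = 1.0), where it read 9.15 ± 0.15 and the control 9.62 ± 0.24 (SD, n = 4 each), while *Hand1* and *Hand2* in rescue were at -0.03 and -0.02. In *β-cat LOF* 3 were lower, with the lowest p for *Bmp5* (-0.49, limma, adjusted p = 0.593) and the lowest log2 fold change for *Bmp10* (-1.05). Without control replicate 2, 2 were lower, with *Bmp5* at -0.35 and *Bmp10* at -0.46.

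**Figure D4:**
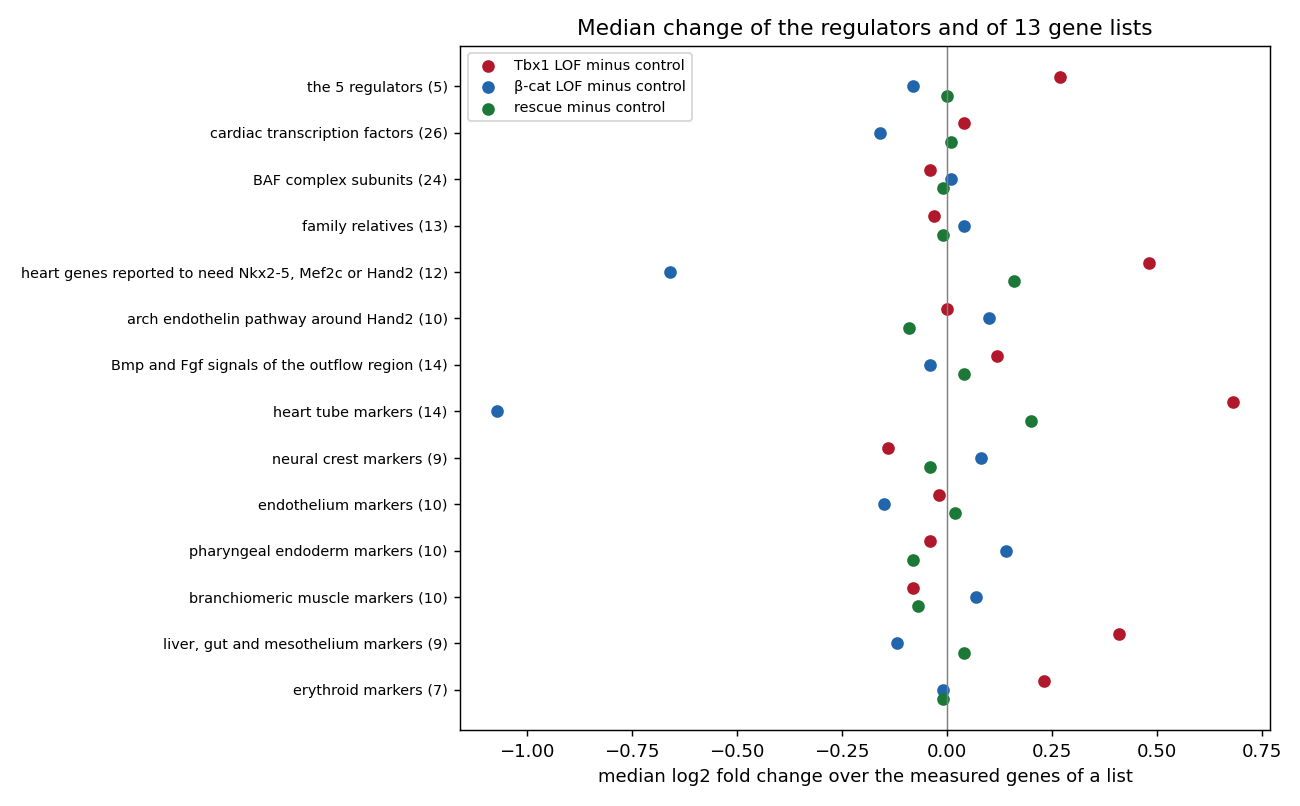
Median log2 fold change over the measured genes of each list (number in parentheses) in *Tbx1 LOF*, *β-cat LOF* and rescue, each against its own control. The 5 regulators lie at 0.27, -0.08 and 0.00, and the heart tube markers at 0.68, -1.07 and 0.20.

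Among themselves the 5 genes were correlated to different degrees over the 24 arrays. With group means subtracted, r was highest for *Hand1* with *Smarcd3* (0.662) and *Nkx2-5* with *Mef2c* (0.637), and lowest for *Mef2c* with *Hand2* (0.261) and *Hand2* with *Smarcd3* (0.289). These are descriptions over arrays that share experiments and pools. The genes with the pattern most like *Smarcd3* over the 24 arrays were *Sphkap* (r = 0.943), *Atp1b1* (0.942), *Slc8a1* (0.939), *Gm2a* (0.937) and *Nexn* (0.933), which include a subunit of the sodium pump, the cardiac sodium-calcium exchanger and a Z-disc protein. Of these, *Slc8a1* had log2 fold changes of 1.06 for *Tbx1 LOF*, -1.28 for *β-cat LOF* (-0.75 without control replicate 2) and 0.35 for rescue.

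*Nkx2-5* was most like *Rbm24* (r = 0.913), a splicing factor of striated muscle, followed by *Chchd10*, *Bmp7*, *Ppp1r13l* and *Kcne1* (0.869). *Mef2c* was most like *Smtnl2* (0.814), then *Unc45b*, a myosin chaperone, *Prr5*, *Fam78a* and *Popdc2* (0.786). *Hand1* was most like *Csrp2* (0.858) and *Acta2* (0.847), both genes of smooth muscle, then *Tinagl1*, *Mab21l2* and *Asb12* (0.823). *Hand2* was most like *Eps8l2* (0.816), *Unc5b*, a netrin receptor, *Mab21l2* (0.794), *Tbx2* and *Igsf3* (0.772). *Mab21l2* was the 1 gene that stood in 2 of these 5 lists, those of *Hand1* and *Hand2*.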

How the data were processed

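RNA from AHF tissue of embryos was hybridized to 24 arrays, 4 per group. The authors deposited log2 values made with RMA (oligo package), which corrects the background, equalizes the distributions of the arrays and summarizes probes by gene, with the version and the build not given in the sources used here. For batch, the methods name ComBat and a block. No source ties an array to a batch, so these steps were left out here. Whether the deposited values already carry ComBat is not stated.

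The 35556 probe sets were reduced to the 21789 that carry 1 gene symbol (1621 carry several, 12146 carry none) and averaged by gene to 19938 genes. No filter was applied. Values ranged from 3.62 to 14.56 and array medians from 8.00 to 8.14. The number of arrays limits the precision, and p-values measure the spread between pools of embryos. Gene coordinates and upstream sequences are from RefSeq (GRCm38.p6).

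The test was limma 3.58.1 under R 4.3.3, as 1 fit of 6 group means with 18 residual degrees of freedom, with Benjamini-Hochberg adjustment over all 19938 genes, and for single genes by two-sided exact permutation tests over arrays, whose smallest p is 0.0286. Correlations used 100000 permutations within groups. Figures used Python 3.11.15 (matplotlib 3.10.9).

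The 5 genes and the gene lists were chosen with earlier results of these data known. Genes named from a list are those at an adjusted p under 0.05 or, where none passed, from the 4 with the lowest p, and genes named for likeness are the 5 with the highest r. Comparisons of control groups, and list and group values without *β-cat LOF* control replicate 2, were added after the data were seen.

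Same-numbered mutant and control arrays of the *Tbx1* experiment deviated together (r of 0.157 to 0.494 over genes in all 4 pairs). The labels state no pairing, and only 1 mutant array of 4 had its highest r with its own number. Mutant arrays 1 and 2 had theirs with controls 2 and 1, and mutant array 3 with control 4. The main fit and the exact permutation tests therefore used no pairing, and values by same-numbered pair are a description. In the other 2 experiments r ranged from -0.064 to 0.479. The number was a name only in the main fit, and the replicate block alternatives applied it to every experiment. Alternatives were the replicate block, a term for numbers 1 and 2 against 3 and 4, other normalizations, a filter, the highest probe set, and leaving out each array.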

Additional observations from a re-analysis of the deposited data

Results flagged for a closer look

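Of the 30 sets of 4 arrays (5 genes in 6 groups), 2 held an array far from the other 3, where chance alone gives about 1 in 20. *Mef2c* read 10.78 on rescue replicate 2, against 10.52 to 10.56 on the other rescue arrays, and *Hand1* read 10.64 on *β-cat LOF* replicate 3, against 10.30 to 10.36 on the others. No cause was tested.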

How the results depend on the processing

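All 5 genes were recomputed in 6 comparisons under 33 alternatives. In *Tbx1 LOF* all 5 kept their sign under all 33, and none of the 5 was called in any mutant against its own control. The replicate block as a fixed term changed no call (*Hand2* in *Tbx1 LOF* adjusted p = 0.207, *Hand1* 0.393, *Smarcd3* 0.431). In *Tbx1 LOF* minus *β-cat LOF*, the replicate block as a random term called 2 genes, *Smarcd3* (0.79, adjusted p = 0.026) and *Hand2* (0.33, adjusted p = 0.0331), and the term for numbers 1 and 2 against 3 and 4 called 1, *Smarcd3* (adjusted p = 0.0381). Of all genes 133 and 120 were then called, against 10. Leaving out 1 array gave 0.65 to 0.92 for *Smarcd3* and 0 to 1 called genes, with 0.92 (adjusted p = 0.00876) without *β-cat LOF* control replicate 4, when 169 of all genes were called.

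Signs turned only among values near 0. *Hand1* in *β-cat LOF* was 0.0269 with quantile normalization repeated. Leaving out 1 array gave -0.10 to 0.13 for *Hand1* and -0.14 to 0.0429 for *Mef2c* in *β-cat LOF*. In rescue it gave -0.0417 to 0.0813 for *Nkx2-5*, -0.0587 to 0.0553 for *Mef2c*, -0.10 to 0.10 for *Hand1* and -0.0467 to 0.0133 for *Hand2*. For rescue minus *β-cat LOF* it gave -0.0407 to 0.14 for *Mef2c* and -0.15 to 0.11 for *Hand1*. The cause was not tested.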
